A study of Homo sapiens with 8 samples.

Results

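A single two-colour microarray compared PANC1 cells transfected with miR-130-5p with mock PANC1 cells, and it was 1 of the 8 arrays of the series. It was chosen by its label, which names both the microRNA and the cell line. PANC1 is an established human pancreatic cancer cell line. The transfected cells were labelled with Cy5 and the mock cells with Cy3. The mock cells received no transfection at all, so that the effect of the small RNA cannot be told apart from that of the transfection with Lipofectamine RNAiMAX. The label does not say whether miR-130a-5p or miR-130b-5p was used. The array had no replicate and no dye swap, so no p-value or standard error was computed and no value below has a replicate check. Each ratio compares the RNA of whole cultures, so that fewer cells expressing a gene and less RNA per cell cannot be told apart.

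The other 7 arrays were made in the same way, each with transfected cells in Cy5 and cells without transfection in Cy3. The prostate cancer line PC3 received si-PIR-2 or si-PIR-3, siRNAs against PIR. The lung cancer line SK-MES-1 received miR-144-5p on one array and miR-144-3p on another. The pancreatic cancer line SW1990 and the breast cancer line MDA-MB-231 each received miR-204-5p, and PANC1 itself received miR-130-3p. They served as the background for changes that any small RNA or transfection could bring. The file headers place all 8 arrays on 1 slide.

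MicroRNAs are short RNAs that guide Argonaute proteins to messenger RNAs and lower their stability or translation. Pairing of the seed, bases 2 to 8 of the microRNA, with the target is the main determinant of recognition. A microRNA hairpin yields a 5p and a 3p strand, which have different seeds and therefore different targets. For the miR-130 family the 3p strand is usually the abundant guide, and the 5p strand is often called the passenger strand. The mature sequences that RefSeq gives are printed below with the seed in capitals, because the 2 candidate 5p strands share 6 of these 7 bases and the 3p strand has another seed.
hsa-miR-130a-5p: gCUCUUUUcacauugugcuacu
hsa-miR-130b-5p: aCUCUUUCccuguugcacuac
hsa-miR-130b-3p: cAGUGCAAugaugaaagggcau
In GRCh38.p14 they lie at chr11:57641212-57641233, chr22:21653316-21653336 and chr22:21653354-21653375, all on the + strand. The seed match of miR-130a-5p reads AAAAGAG in a transcript and that of miR-130b-5p reads GAAAGAG. Both hold AAAGAG, so the 2 candidates are close in what they could pair with.

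The probes on the array are 60 bases of the transcript's own sense, and some hold a seed match. Windows of up to 23 bases around the match are printed for the genes with a match that the results below turn on, with the match in capitals.
GALNT1: acaagattGAAAGAGtctttctc
SNRPC: aaatggatGAAAGAGc
WBP11: acttagatGAAAGAGctgcttcc
NSA2: cagaaacgAAAAGAGaagg
C1R: tggatcaaGAAAGAGatggagga
The probes that hold them lie, in hg19, at chr18:33289953-33290012 on the + strand, chr6:34730394-34730453 on the + strand, chr12:14939875-14939934 on the - strand, chr15:59693860-59693919 on the - strand and chr12:7187836-7187895 on the - strand. No hg19 annotation was used here, so exon or UTR was not assigned. The deposited file places the NSA2 probe on a chromosome other than that of the gene itself. The log2 ratios at these probes were -2.04, -1.95, -1.54, -1.31 and 2.12 in that order. The first 4 genes were therefore lower in transfected cells, whereas C1R, a protease of the complement system, was higher despite a match. These genes were picked with their values known, and further higher genes with a match are named below.

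Signals on the array were low. The median spot intensity was 24.6 in Cy3 and 22.8 in Cy5 over median local backgrounds of 20 and 16. In Cy3 24961 probes (42.9%) were well above background and in Cy5 29014 (49.9%), and no probe was saturated. The 29288 probes above background in at least 1 channel were used. Their log2 ratios had an SD of 0.73, against 0.49 to 0.59 on the other 7 arrays. Repeat spots of 1 probe differed little, with a median SD of 0.04 over 286 probes. The spread of ratios on the miR-130-5p array was thus the widest of the 8 and well above the spot-to-spot error.

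The labelled cell type was checked on the mock channel. Of 10 ductal epithelial markers 7 were well above background, among them the keratins KRT18 (intensity 16224), KRT19 (10065), KRT8 (1900) and KRT7 (536). CDH1 and CFTR were among the markers that were not. Of 9 acinar markers 1 was above background, of 9 fibroblast and stellate markers 4, and of 6 leukocyte markers 4, with highest intensities of 28.1, 213 and 228. Of 8 endocrine markers 3 were above background, with a highest intensity of 32.1, and of 6 endothelial markers 1. The keratins of ductal epithelium were thus detected and most acinar and endocrine markers were not, while THY1 (213), COL1A1 (154) and CD79A (228), markers of other cell types, were.

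A gene's value was the median log2 ratio of its probes, Cy5 over Cy3, and below 0 means lower after transfection. A gene was called lower or higher when at least 2 probes pointed the same way and the median was 2-fold or more. Of 5178 genes with at least 2 probes, 257 (4.96%) were lower and 209 (4.04%) higher. Of these, 198 (3.82%) and 143 (2.76%) were also 2-fold away from the median of the other 7 arrays. The other arrays had 12 to 110 genes lower and 61 to 151 higher, so the miR-130-5p array had the most calls in both directions. Among 22484 genes with at least 1 probe, 1315 (5.85%) lay at or below -1 and 1726 (7.68%) at or above 1. The calls nearest the threshold were METAP2 at -1.002 and SNHG15 at 1.002, and just outside it lay LUC7L3 at -0.9995 and CXCL1 at 0.9993.

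**Figure D1:**
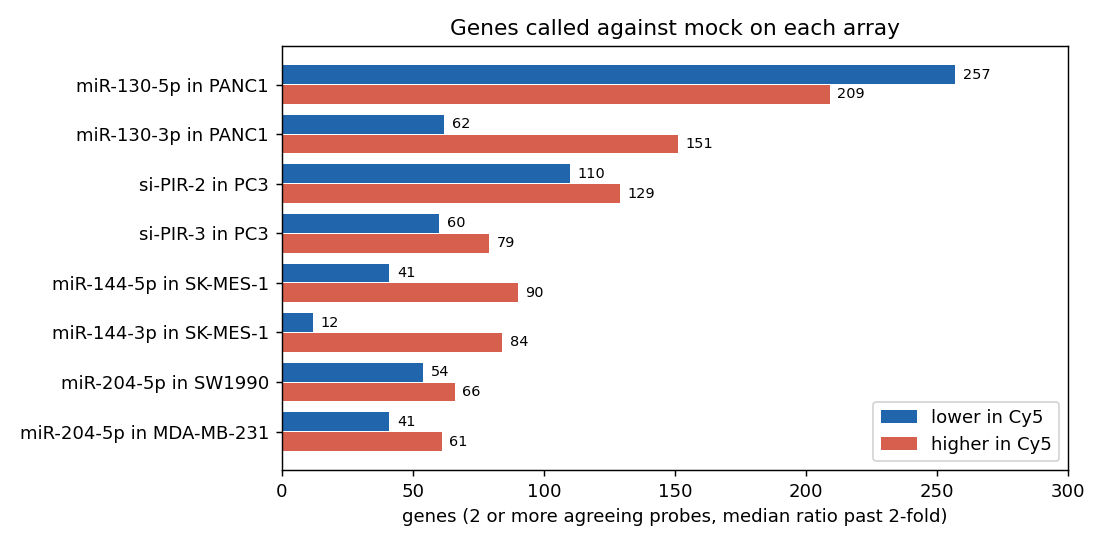
Number of genes called lower or higher (at least 2 agreeing probes, 2-fold or more) on each of the 8 arrays, one pair of bars per array. The miR-130-5p array had 257 lower and 209 higher genes, more than any other array in either direction; each array is a single sample.

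The lower and higher genes differed in kind. Of the 257 lower genes 213 (82.9%) were protein coding, close to the 81.2% among all genes with at least 2 probes, and 239 had their lowest value of the 8 arrays here. Their median mock intensity was 98.1, against 109 for all such genes. Of the 209 higher genes 129 (61.7%) were protein coding and 28 (13.4%) long noncoding RNAs, which made up 6.95% of all. These shares count names without an entry in the RefSeq table as neither. Entries were found for 166 of the 209 higher, 237 of the 257 lower and 4659 of all 5178 names. The higher genes had a median mock intensity of 39.9. Only 90 of them (43.1%) had every probe above background in both channels, against 204 (79.4%) of the lower genes. The higher genes thus rested more on dim mock signals. With only probes above background in both channels, 96 genes were higher in place of 209, and 66 in place of 143 also against the other 7 arrays.

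A second ratio was computed from the spot signals with normexp background correction (offset 50) and loess normalization, because low signals weigh less in it. By that ratio 30 genes (0.579%) were lower and 20 (0.386%) higher. The balance of the 2 directions also moved with the method. With loess and no background correction 84 genes (1.62%) were lower and 29 (0.56%) higher, whereas with normexp and median centring 8 (0.154%) were lower and 98 (1.89%) higher. Genes called by both ratios, also against the other 7 arrays, numbered 23 lower (0.444%) and 12 higher (0.232%). They are described first, and they were singled out after their values were seen.

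**Figure D2:**
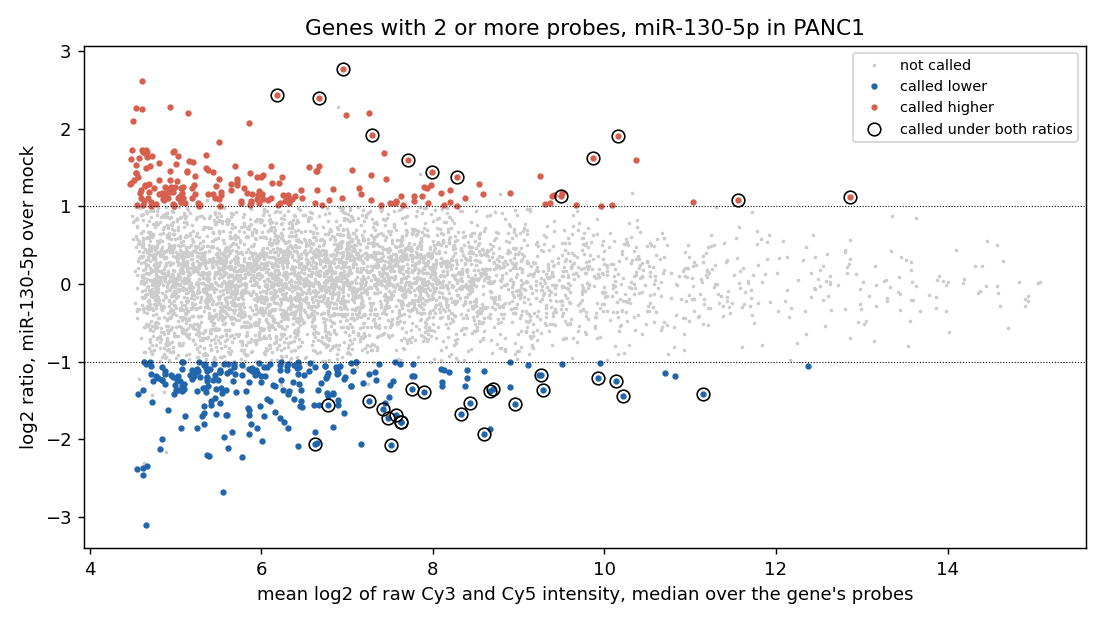
Log2 ratio (Cy5 over Cy3) of each gene with at least 2 probes on the miR-130-5p array against its mean log2 intensity, with called genes coloured. Ratios spread more widely towards low intensity, and many of the 209 higher genes sit in the dim range.

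Of the 23 lower genes 21 are given by what each is known to do, with no count of such roles over all genes. GALNT1, which starts mucin-type O-glycosylation, had the lowest ratio of them at -2.08, or 4.22-fold lower, and its 2 probes gave -2.11 and -2.04. Their intensities were 263 and 387 in mock cells and 86.2 and 125 in transfected cells. On the other 7 arrays GALNT1 lay between 0.07 and 0.69, and miR-130-3p in PANC1 gave 0.45. It was thus lower on the miR-130-5p array only. MCFD2, part of a cargo receptor from the ER to the Golgi, was lower at -1.78. The small GTPase RAB12 was at -1.73, but it was also below 0 with miR-130-3p, at -0.93. SLC37A4, the glucose-6-phosphate transporter of the ER, was at -1.78 over 3 probes, and GPX8, an ER peroxidase, at -1.67 although its 2 probes differed (-2.49 and -0.85).

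Among the lower genes with a role in RNA or translation, SNRPC, a protein of the U1 spliceosomal particle, was at -1.93, and its brighter probe had an intensity of 5855 in mock and 2270 in transfected cells. The splicing factor WBP11 was at -1.39, the ribosome biogenesis factor NSA2 at -1.45 and the cold-inducible RNA-binding protein RBM3 at -1.17. As for NSA2, the deposited file places 1 probe of WBP11 off the gene's own chromosome. Its 2 probes are placed on chromosome 12 (-1.54) and chromosome 2 (-1.25). IARS, listed now as IARS1, the cytosolic isoleucyl-tRNA synthetase, was at -1.53. These genes lay close to 0 with miR-130-3p. EIF4EBP2, a repressor of cap-dependent translation, differed from them: it was 2.92-fold lower with miR-130-5p (-1.55) and higher with miR-130-3p (1.20).

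The rest have various roles. CUL4B, a scaffold of ubiquitin ligases, was at -1.69. UBA2, a subunit of the SUMO-activating enzyme, was at -1.21 and the SUMO protease SENP1 at -1.35. The kinetochore protein ZWINT was at -1.37. All of these were thus 2.31-fold to 3.23-fold lower. SSX2IP, a centrosomal protein, was lower still at -2.06. In mitochondria, ACADSB of fatty acid oxidation was at -1.56, COQ9 of coenzyme Q synthesis at -1.38 and ATPIF1, listed now as ATP5IF1, an inhibitor of the ATP synthase, at -1.41. The transcription cofactor LMO4 and the uncharacterised FAM228B were at -1.35 and -1.60.

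**Figure D3:**
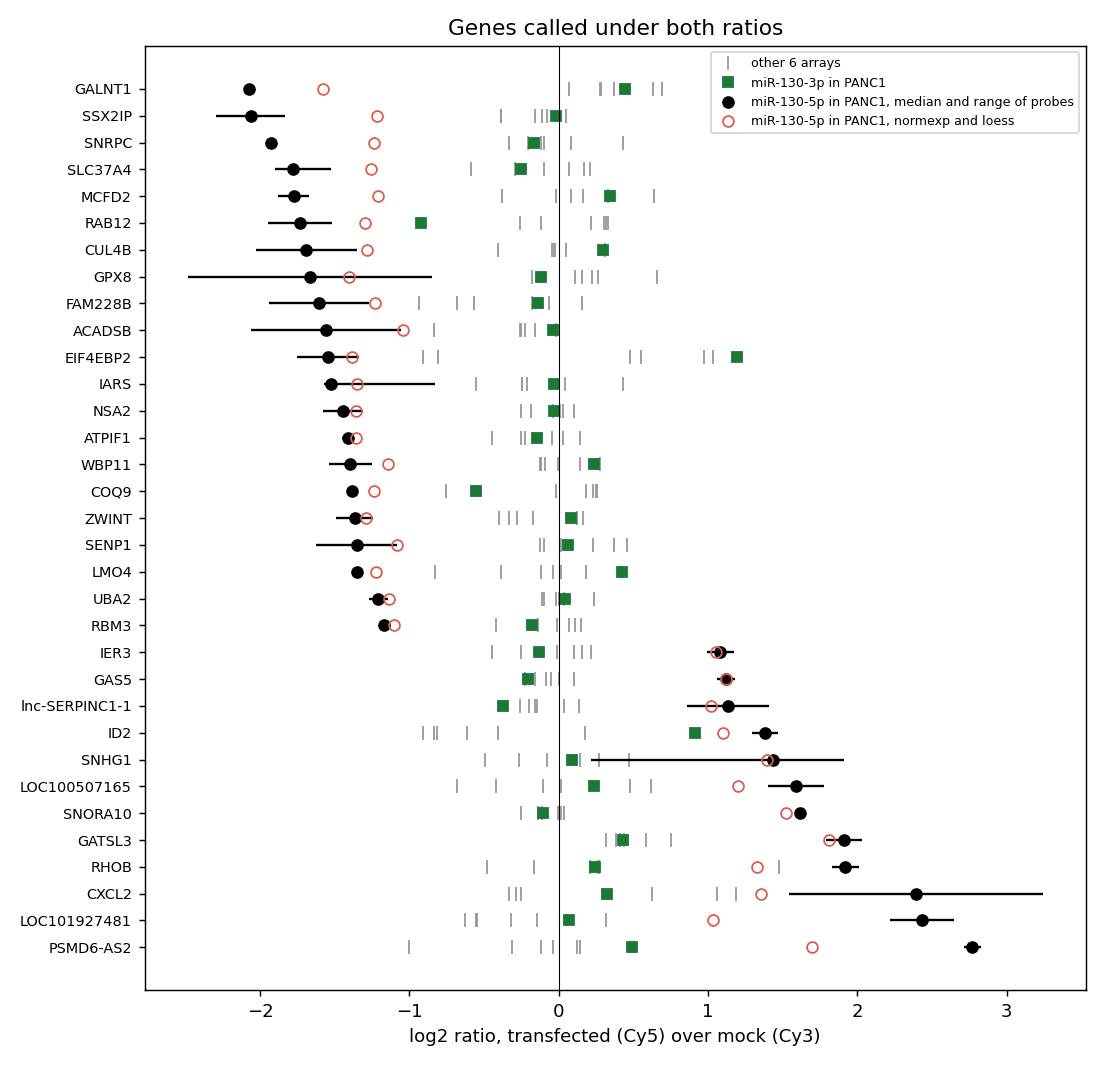
Log2 ratios on all 8 arrays of 21 of the 23 lower genes and the 12 higher genes called by both ratios, one row per gene. Black points and lines are the median and range of probes on the miR-130-5p array, open circles the second ratio, squares miR-130-3p and ticks the other 6 arrays; the black points lie at the outer end of every row, from -2.08 for GALNT1 to 2.77 for PSMD6-AS2.

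Among the 12 higher genes was RHOB, a small GTPase that is induced early by stress and growth factors, at 1.92 or 3.78-fold. Its probes read 87.2 and 76.1 in mock cells and 349 and 265 in transfected cells. CXCL2, a neutrophil-attracting chemokine, was 5.25-fold higher, with probes at 3.24 and 1.54. ID2, an inhibitor of helix-loop-helix transcription factors, was at 1.38, and was at 0.91 with miR-130-3p. The early response gene IER3 was at 1.08. GATSL3, listed now as CASTOR1, a sensor of arginine for mTORC1, was at 1.91, although its 2 probes overlap and count as nearly 1 measurement. On the other 7 arrays CXCL2 ran from -0.33 to 1.19 (miR-144-3p) and RHOB from -0.48 to 1.48 (si-PIR-2). GATSL3 ran from 0.32 to 0.75 there and IER3 from -0.44 to 0.22. High values of CXCL2 and RHOB were thus found on other arrays too.

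The other 7 of these 12 are noncoding or unnamed transcripts. PSMD6-AS2, an antisense RNA, had the highest ratio at 2.77 (6.82-fold), again from probes that overlap. LOC101927481 was at 2.43 and LOC100507165 at 1.59. Both GAS5 (1.12) and SNHG1 (1.44) are noncoding hosts of small nucleolar RNAs, and SNORA10 (1.61) is such a small RNA. One of the 3 SNHG1 probes was dim and read 0.21. The probes of lnc-SERPINC1-1, at 1.13, lie beside those of GAS5 on the same strand, so the 2 names may read 1 transcript.

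Genes were also ranked by the scanner ratio and its distance from the other 7 arrays, whichever was smaller, and the 12 lowest and 12 highest with a current gene symbol were examined. They were not all kept by the second ratio. SHMT1, the cytosolic serine hydroxymethyltransferase of folate metabolism, was the lowest named gene at -2.67, or 6.37-fold, with both probes at low intensity (95 and 60.9 in mock, 33.7 and 25.3 in transfected cells). By the second ratio it was at -0.90. On the other arrays SHMT1 lay between -0.28 and 0.37. SEMA4F (-2.11), MAP7D2 (-2.22) and RABEP1 (-2.02), an effector of RAB5 on endosomes, were above background in both channels as well, and fell short of 2-fold by the second ratio (-0.78, -0.94 and -0.98). These 4 genes were thus low by both ratios, but less so by the second.

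Other genes with large ratios had at least 1 probe that was not well above background in 1 channel, and at such a probe only a bound was measured. A bound sets the brighter channel against the larger of the dim channel's own signal and the lowest signal counted as above background there. The signals were those of the second ratio, with its normexp correction and offset, per channel after loess and Aquantile normalization. The offset is added to both channels and draws the bounds of dim probes towards no change. A bound also stays open to dye bias. At their dim probes, NEK1, a kinase linked to cilia and DNA repair, was at least 1.39-fold lower, EFR3B at least 1.28-fold, FGF2, a fibroblast growth factor, at least 1.22-fold, and GK, the glycerol kinase, at least 1.15-fold. SCRN3 was at least 1.11-fold lower. ITGA9-AS1 has the same bound at a dim probe, but its 1 probe above background in both channels read -0.11, so its median of -2.35 rested on dim probes. In the other direction the nuclear receptor NR4A2 was at least 1.20-fold higher, and FAM83A-AS1, RFPL4AL1 and LRRC69 at least 1.06-fold, 1.02-fold and 1.02-fold higher, with no probe above background in mock cells. RGS16, a regulator of G protein signalling, TSC22D2, C1R, CARD6 and BNIPL had 1 dim probe each, with bounds of 1.31-fold, 1.33-fold, 1.16-fold, 1.09-fold and 1.06-fold. These bounds are small, and the offset makes them smaller, so they are no measure of how large the changes were. At probes above background in both channels FGF2 was at -1.51, SCRN3 at -1.32, NEK1 at -1.29, GK at -1.20 and EFR3B at -0.87. C1R was at 2.12 there, BNIPL at 1.97, RGS16 at 1.92, CARD6 at 1.66 and TSC22D2 at 1.59. By the second ratio, over all their probes, these genes fell short of 2-fold. NR4A2, FAM83A-AS1, RFPL4AL1 and LRRC69 had no such probe, and how much higher they were is not known. Some of the 12 highest genes were also high on the other PANC1 array. CARD6 was at 1.65 here and 1.59 with miR-130-3p, and RFPL4AL1 at 1.65 and 1.53, and both were called higher on both arrays. TSC22D2 was at 2.17 and 1.04. The rest of the 12 lay between -0.42 (LRRC69) and 0.85 (C1R) with miR-130-3p.

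Gene groups were described by the medians of 19 lists, with every member measured by at least 1 probe, beside a median of 0.10 over all 22484 genes. With normexp and median centring, which moved that median to 0.12, the medians of 7 lists turned from below 0 to between 0.06 and 0.43. These were the G1/S, housekeeping, glycolysis, NRF2, heat shock, collagen and epithelial lists, so that no direction is given for them. Mitotic genes stood lowest. All 38 were measured, 37 were below 0, 11 lay at or below -1 (5.85% of all genes did) and the median was -0.70. Over all genes 9718 of 22484 were below 0. Of 9 mitotic genes with at least 2 probes 3 were called lower, against 4.96% of all such genes: ZWINT, and SMC2 (-1.07) and SMC4 (-1.02), the core subunits of condensin. SMC4 was no call against the other 7 arrays (-0.68 from their median), and SMC2 was at -0.61 by the second ratio. Other members measured by 1 probe included HMMR (-1.92), TOP2A (-1.70), which untangles DNA, the kinetochore motor CENPE (-1.70) and ANLN (-1.39), a cytokinesis protein. The median of the same list was -0.19 with miR-130-3p and between -0.40 and 0.18 on the other 6 arrays, so that it was lowest on the miR-130-5p array.

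DNA replication genes behaved alike. Of 32 measured genes 29 were below 0 and 8 at or below -1, with a median of -0.68 against 0.16 with miR-130-3p and -0.33 to 0.25 on the other 6 arrays. Of 5 with at least 2 probes 1 was called lower, against 4.96% of all such genes. The median of these 5 was only -0.27, where the 9 mitotic genes with at least 2 probes had one of -0.55. By 1 probe each, PRIM1 of the DNA primase was at -1.48, CDC45 of the replicative helicase at -1.34, RRM2 of ribonucleotide reductase at -1.31, the ligase LIG1 at -1.14 and POLA1 at -1.11. By the second ratio the medians of the mitotic and replication lists were -0.59 and -0.65. With normexp and median centring they were -0.27 and -0.18, so that both stayed below 0 but were much smaller.

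The 23 measured G1/S cyclins, CDKs and RB family genes had a median of -0.23, but the 5 with at least 2 probes had one of 0.43. RBL1, the RB relative p107, was called lower at -1.19 (-0.36 by the second ratio). CDK6, which drives the exit from G1, was at -0.77 by 1 probe and at 2.27 with miR-130-3p. Housekeeping genes had a median of -0.21 over 18 genes (0.43 with median centring). PPIA was at -0.79 over 5 probes, and IPO8 (-1.45) and TFRC (-1.18) lay at or below -1, so low ratios were also found outside the cell cycle lists. Of 22 p53 target genes the median was 0.28. AEN (1.08), a nuclease, and PHLDA3 (1.01) were called higher, whereas RRM2B, a subunit of ribonucleotide reductase, was called lower at -1.17. PHLDA3 rested on a probe that was dim in mock cells (1.68), its other probe reading 0.33, and AEN was no call against the other 7 arrays (0.86 from their median). By the second ratio AEN, PHLDA3 and RRM2B were at 0.75, 0.16 and -0.41.

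**Figure D4:**
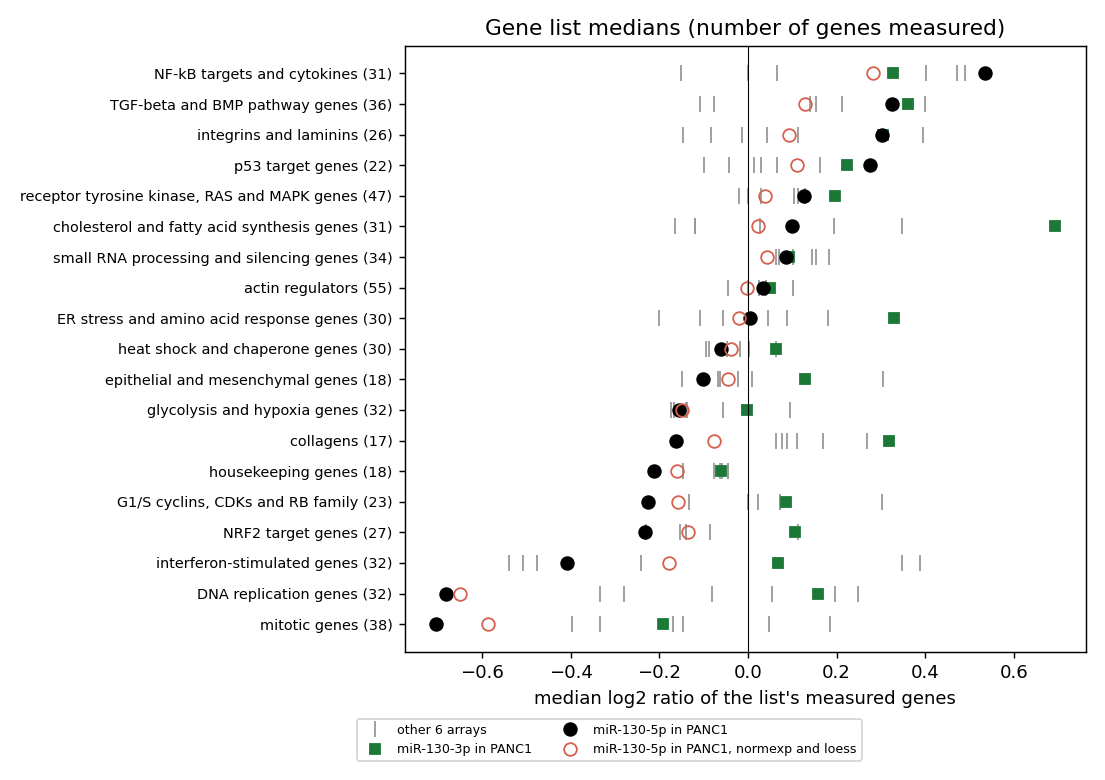
Median log2 ratio of the measured members of each of the 19 gene lists on the miR-130-5p array, (black points; open circles for the second ratio), with the miR-130-3p array (squares) and the other 6 arrays (ticks) beside it. Mitotic genes (-0.70) and DNA replication genes (-0.68) were lowest on the miR-130-5p array and NF-kB targets and cytokines (0.53) highest.

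NF-kB targets and cytokines stood highest. The median of 31 measured genes was 0.53, 4 were below 0 and 9 lay at or above 1. With miR-130-3p the median was 0.33, and on the other 6 arrays it lay between -0.15 and 0.49, so it was the highest of the 8 but near the next. Of 6 genes with at least 2 probes CXCL2 and the cytokine LIF (1.11, and 0.48 by the second ratio) were called higher. By 1 probe, the chemokines CXCL3, CCL20 and CXCL8 were at 4.19, 2.96 and 2.15, and IL6 at 1.73. By the second ratio these 4 were at 0.58, 0.53, 0.30 and 0.15. NFKBIA, the NF-kB inhibitor, was at 1.23 by both ratios, and TNFAIP3, a further inhibitor, at 1.62 and 0.85. The direction was thus shared, while the size depended on how the dim signals were treated.

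The receptor tyrosine kinase, RAS and MAPK list had a median of 0.13 over 47 genes, and 6 of them lay at or above 1, where 7.68% of all genes did. These 6 are named for that value, and each has 1 probe. The transcription factor EGR1 was at 3.15, the ERK phosphatase DUSP5 at 2.18, PHLDA1 at 2.0, FOS at 1.70, JUN at 1.43 and MYC at 1.05. The second ratio gave 2.69, 1.80, 1.87, 0.63, 1.35 and 1.04, so that FOS alone of these 6 fell below 2-fold by it. With miR-130-3p EGR1, DUSP5 and FOS were at 0.88, 1.01 and 1.91, and PHLDA1, JUN and MYC at -0.25, 0.15 and 0.26. None of the 13 genes of the list with at least 2 probes was called, and the probe count of these 6 kept them out of the calls.

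Interferon-stimulated genes were below 0 for 27 of 32 measured members, with a median of -0.41. IFIT2, an RNA-binding antiviral protein, was called lower at -1.22, and by 1 probe HERC5 was at -2.20, IFIT1 at -1.52 and OASL at -1.36. Other transfections also had low values in this list. Its median was between -0.54 and 0.39 on the 6 arrays outside PANC1, where OASL reached -3.17, and IFIT2 was no longer a call when set against the other 7 arrays.

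The NRF2 target list held large values in both directions around a median of -0.23 over 27 genes. HMOX1, the heme oxygenase, was at 1.97 (2.02 by the second ratio) and was at -1.25 with miR-130-3p. The NADPH-producing enzymes ME1 and PGD were at -1.99 and -1.18. PIR, which encodes pirin and is the gene that other arrays of the series silenced in PC3, was at -1.59, with 1 probe at chrX:15403058-15403117 on the - strand of hg19. Its intensity was 5466 in mock and 2664 in transfected cells. PIR was at 0.05 with miR-130-3p and between -5.46 and 0.01 on the other 6 arrays, which include both PIR siRNAs. None of the 5 genes of this list with at least 2 probes was called.

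Signalling and structural lists had few calls. The TGF-beta and BMP list had a median of 0.33 over 36 genes. ID2 was called higher, and by 1 probe the receptor TGFBR1 was at -1.76 and the activin subunit INHBA at 1.49. Actin regulators were centred at 0.03 over 55 genes, with RHOB and the cofilin phosphatase SSH1 (1.17) called higher and the kinase PAK2 at -1.89 by 1 probe. Integrins and laminins had a median of 0.30 over 26 genes and collagens one of -0.16 over 17, and no gene of either was called. LAMB1 had a median of 1.07, but its 3 probes ran from -1.16 to 2.11 and disagreed in sign. Of 18 epithelial and mesenchymal genes none was called, with a median of -0.10.

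Metabolic and stress lists lay near the median of all genes. Glycolysis and hypoxia genes had a median of -0.15 over 32 genes, and LDHA, the lactate dehydrogenase A subunit, was called lower at -1.06, but on the 6 arrays outside PANC1 it was also below 0, between -0.80 and -0.21. The medians were 0.10 for 31 cholesterol and fatty acid genes and 0.01 for 30 genes of ER stress and amino acid response, with no call. With miR-130-3p the same lists were at 0.69 and 0.33. In the latter list PHGDH and PSAT1 of serine synthesis and the asparagine synthetase ASNS were at -1.15, -1.06 and -1.07 by 1 probe each. Heat shock genes were at -0.06 over 30 genes, with DNAJB2 called higher at 1.16. The 34 small RNA processing and silencing genes had a median of 0.09, and PAN3, a deadenylase subunit, was called higher at 1.26 from probes of 0.37 and 2.14, the latter dim in mock cells.

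The seed matches were then counted over all probes in use. GAAAGAG, the match of miR-130b-5p, was in 216 probes (0.738% of 29288) and AAAAGAG, that of miR-130a-5p, in 245 (0.837%), and 2 probes held both. Of all probes 6.44% lay at or below -1. Of those with GAAAGAG 16.2% did (35 probes, exact binomial 95% interval 11.6% to 21.8%, counting error only), and of those with AAAAGAG 12.2% (30 probes, 8.42% to 17.0%). Their median ratios were -0.16 and -0.05, against 0.09 for all probes. Probes with either match were thus more often low than probes in general. With an A after the match, the shares were 21.8% of 78 probes for miR-130b-5p (13.2% to 32.6%) and 9.30% of 86 for miR-130a-5p. The interval of the latter, 4.1% to 17.5%, holds the 6.44% of all probes.

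The same letters on the opposite strand gave a different picture. CTCTTTC and CTCTTTT stood in 233 and 276 probes, of which 4.29% and 5.43% lay at or below -1. The match of hsa-miR-130b-3p, TTGCACT, was in 133 probes, of which 3.76% did. Matches of the other microRNAs of the series gave 4.41% of 136 probes for hsa-miR-144-3p, 2.99% of 67 for hsa-miR-144-5p and 9.64% of 166 for hsa-miR-204-5p, whose match AAAGGGA is also rich in A and G. With an A after it, the hsa-miR-204-5p match gave 13.9% of 72 probes, above the 9.30% of miR-130a-5p. On the miR-130-3p array 2.26% of probes with GAAAGAG and 3.59% of those with AAAAGAG were at or below -1, where all probes gave 1.87%. On the 6 arrays outside PANC1 the shares ran from 1.17% to 3.67% with GAAAGAG and from 0.369% to 4.76% with AAAAGAG, the highest being miR-204-5p in SW1990, where all probes gave 1.9%. The share of low probes over all was itself higher on the miR-130-5p array, at 6.44%, so the shares of different arrays are not comparable as such. Probes with GAAAGAG exceeded all probes on each of the other 7 arrays too. The excess was smallest with si-PIR-2 (3.03% against 2.93%) and largest with miR-204-5p in MDA-MB-231 (3.67% against 1.84%). Probes with AAAAGAG exceeded all probes on some of the other arrays and fell below them on others.

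**Figure D5:**
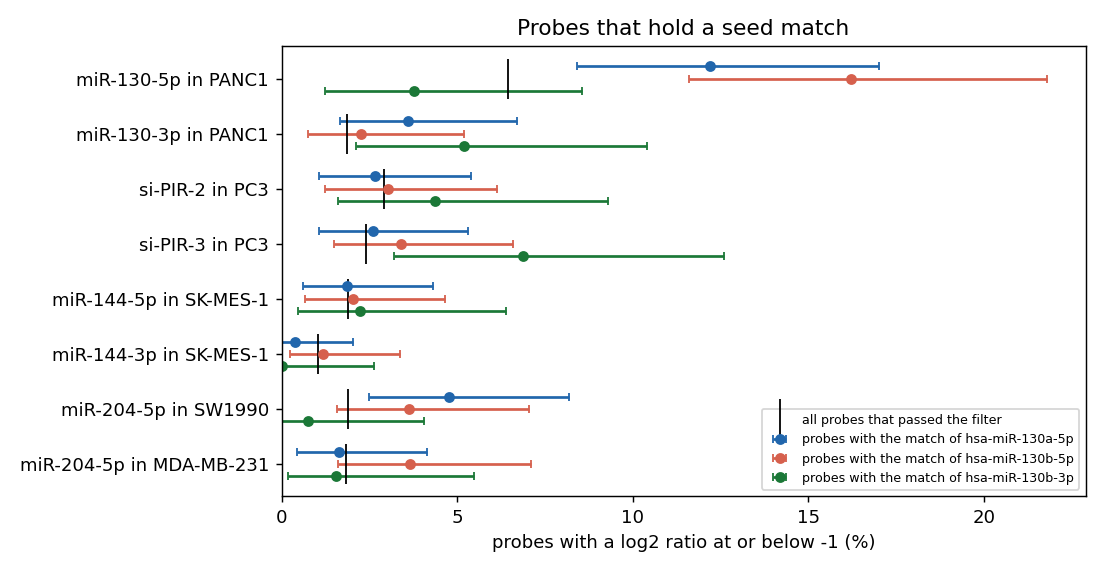
Share of probes with a log2 ratio of -1 or less, in percent, among probes that hold the seed match of miR-130a-5p, miR-130b-5p or miR-130b-3p (points) and among all probes (vertical ticks), for each of the 8 arrays, with exact binomial 95% intervals that cover counting error only. On the miR-130-5p array the shares of the 5p matches were 12.2% and 16.2%, against 6.44% of all probes.

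Base composition moved with these shares. Of probes with at most 45% GC 7.73% lay at or below -1, and above that 3.27%. Among the former the share was 19.9% of 156 probes with GAAAGAG and 13.5% of 215 with AAAAGAG. Among the latter it was 6.67% of 60 and 3.33% of 30. The higher shares were thus clear of all probes in the class of lower GC. In the class of higher GC they rested on 4 probes with GAAAGAG, with an interval of 1.85% to 16.2% that holds the 3.27%, and on 1 probe with AAAAGAG. This split was chosen after seeing the data. By the second ratio the shares were 6.02% with GAAAGAG (3.24% to 10.1%) and 2.04% with AAAAGAG, against 1.21% of all probes. The interval for AAAAGAG, 0.666% to 4.7%, holds the 1.21%.

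By gene, 85 genes with at least 2 probes had GAAAGAG in a probe. Of these, 12 (14.1%) were called lower and 3 (3.53%) higher, where 4.96% and 4.04% of all such genes were. AAAAGAG was held for 112 genes, with 12 (10.7%) lower and 7 (6.25%) higher. Also against the other 7 arrays, 11 of the 85 genes and 7 of the 112 were lower, where 3.82% of all were. Of the 198 lower and 143 higher genes of that contrast, 5.56% and 2.1% held GAAAGAG, against 1.64% of all genes. AAAAGAG was held by 3.54% and 4.2% of them, against 2.16% of all. It was thus more frequent in both than over all genes, and no more frequent among the lower than among the higher genes. GALNT1, SNRPC and WBP11, whose windows with GAAAGAG are printed above, were among the 23 lower genes called by both ratios, and NSA2 with AAAAGAG was another. PIGK, of GPI anchor synthesis, was lower at -1.27 with GAAAGAG in a probe that read -2.10. Higher genes with a match included C1R and POU5F1 (1.29) with GAAAGAG. With AAAAGAG they included CASS4 (1.63), TMEM236 (1.53), PPP1R18 (1.14) and CES1 (1.13). CASS4 and TMEM236 had no probe above background in mock cells. A probe covers only 60 bases of a transcript, so most of each transcript was not searched, and a match in a probe is not shown to be a site.

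The 2 PANC1 arrays were set side by side. Their mock channels were close, with an SD of 0.18 of the log2 difference over 23598 probes, against 1.09 to 1.19 for mock cells of other lines. The labels do not say whether they share the mock RNA. With miR-130-3p 62 genes (1.15%) were lower and 151 (2.81%) higher. Of the 257 genes lower with miR-130-5p, 15 (5.84%) were also lower with miR-130-3p, which is 24.2% of those 62. Of the 209 higher genes 15 (7.18%) were also higher, which is 9.93% of the 151. Both overlaps exceeded the shares over all genes with at least 2 probes, which were 4.96% lower and 4.04% higher with miR-130-5p. Most calls on the miR-130-5p array were still not calls on the miR-130-3p array, where few genes were called.

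Some genes were called in opposite directions. Lower with miR-130-5p and higher with miR-130-3p were 8 genes, 3.11% of the 257, near the 2.81% of all genes that were higher with miR-130-3p, and 5.30% of the 151. EIF4EBP2 was at -1.55 and 1.20. TET1, which oxidises 5-methylcytosine, was at -1.07 and 2.27, and PLEKHH2 at -1.5 and 1.88. FGF2, with a dim probe, FAM217B, PPP4R4 and FGD4 were further such genes. In the reverse direction were 3 genes, 1.44% of the 209, where 1.15% of all genes were lower with miR-130-3p. LRFN4, a synaptic adhesion protein, was at 1.05 and -1.24 and CES1, a carboxylesterase, at 1.13 and -1.11 over 4 probes, and the third was MREG at 1.04 and -1.45. By the second ratio EIF4EBP2 (-1.39 and 1.20) and LRFN4 (1.03 and -1.15) kept 2-fold values on both arrays, and the others did not.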

How the data were processed

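RNA was hybridised to 8 two-colour Agilent human 60K arrays (design 072363). Per the file headers, the deposited spot intensities and log10 ratios of Cy5 over Cy3 were made with Agilent Feature Extraction 11.5.1.1 (protocol GE2_1105_Oct12, hg19), with background subtraction and dye normalization. The deposited value table held the same log10 ratios, with column medians of 0. Direction follows the dyes in the labels.

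Ratios were converted to log2. Control spots and outlier spots (126 on the miR-130-5p array) were dropped, spots of 1 probe averaged, and probes kept if well above background in at least 1 channel. The alternative ratio used limma 3.58.1 in R 4.3.3 (normexp, offset 50, loess). Other steps used Python 3.11.15, pandas 2.3.3, numpy 2.4.6, scipy 1.17.1 and matplotlib 3.10.9. Gene names are those of the design. Of 22484 names measured 14642 were in the RefSeq table, 1094 of them through a synonym.

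Named genes were the 12 lowest and 12 highest calls, ranked by the smaller of the ratio and its distance from the other 7 arrays, PIR, called list members (otherwise the most extreme members with at least 2 probes) and called genes with a seed match. Members, lists and tests were chosen with earlier results of these data known. Alternatives covered background, normalization, filters, threshold, probe number, reference arrays and seed length. With 1 array per group there was no test, and the number of arrays limits precision. Some genes that met these rules are not reported here.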

Additional observations from a re-analysis of the deposited data

How the results depend on the processing

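Counts of called genes depended on the treatment of background. In the order lower, higher, lower and higher also against the other 7 arrays, they were 257, 209, 198 and 143 as reported, 30, 20, 23 and 12 with normexp and loess, 84, 29, 59 and 24 with loess and no background correction, and 8, 98, 8 and 12 with normexp and median centring, which set the median of all genes with at least 2 probes at 0.15. They were 677, 670, 557 and 480 at 1.5-fold, 70, 42, 50 and 31 at 1.5 on the log2 scale, 42, 35, 34 and 22 with at least 3 probes, and 1302, 1720, 998 and 1240 with at least 1 probe under the same rules. Requiring both channels above background left 96 higher genes, 66 of them against the other 7 arrays. These last 2 settings change the genes counted by construction, and otherwise the cause was not tested.

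The share of probes at or below -1 among those with the miR-130a-5p match was 2.04% with normexp and loess, 4.49% with no background correction, 0.408% with median centring and 3.33% above 45% GC. For miR-130b-5p it was 6.02%, 10.6%, 1.39% and 6.67%, where all probes gave 1.21%, 2.43%, 0.335% and 3.27%. It was 9.93% with no filter on dim probes (6.12% of all) and 11.3% for bases 2 to 7 (6.44% of all). The GC split and the exclusion of probes with GGGG were chosen after seeing the data. Of the 44 named genes that were called, all 301 alternative values had the same sign. This was close to given beforehand, since the calls require probes of the same sign and the alternatives use the same spots. The deposited value table also repeats the same ratios. Agreement of sign says nothing of size, and far fewer genes were called under the other background treatments. No paired analysis was possible because each group has 1 sample, and for the same reason no replicate could be left out. Medians of the mitotic, replication and interferon lists were below 0, and that of the NF-kB list above 0, in all settings tried (mitotic -0.70 to -0.27, replication -0.74 to -0.18). Housekeeping genes turned to 0.43 under median centring. The single array, and for dim probes signal close to background, limit these values.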

Other observations

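Small nucleolar RNAs and the noncoding genes that host them were looked at after GAS5, SNHG1 and SNORA10 had been seen among the higher genes, so their choice followed from the values. Small nucleolar RNAs guide the modification of ribosomal RNA and are cut from the introns of host transcripts. Of 21 host genes measured by at least 1 probe 19 were above 0, 6 lay at or above 1 and 0 at or below -1. Their median log2 ratio was 0.58, and 0.48 by the ratio with normexp and loess. It was -0.13 with miR-130-3p and between -0.15 and 0.26 on the other 6 arrays. Of 11 host genes with at least 2 probes 4 were called higher: SNHG1 (1.44), SNHG17 (1.17), GAS5 (1.12) and SNHG15 (1.002). By 1 probe SNHG9 was at 1.39 and SNHG19 at 1.21. Of 15 small nucleolar RNAs with at least 2 probes 6 were called higher, where 4.04% of all genes were: SNORA10 (1.61), SNORA60 (1.24), SNORD8 (1.16), SNORA76C (1.14), SNORA78 (1.06) and SNORA2A (1.01). By the ratio with normexp and loess SNORA10 alone of these 6 was 2-fold higher (1.52), and the others ran from 0.24 for SNORA60 to 0.98 for SNORA76C.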
